A study of Mus musculus with 18 samples.

Results

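The 10 genes of regulated lytic cell death were followed in kidney cortex: Zbp1, Ripk1, Ripk3, Mlkl and Casp8 of the necroptosis branch, and Nlrp3, Pycard, Casp1, Casp4 and Gsdmd of the inflammasome and pyroptosis branch. They were taken by name, and all 10 had a row among the 24062 rows of the deposited table. Total RNA of kidney cortex from C57Bl/6 mice was sequenced in 18 libraries, 3 in each of 6 groups. Klf6PTKO mice (PTKO below, labelled as lacking the transcription factor Klf6 in the proximal tubule) and Klf6fl/fl mice (fl/fl below, with the floxed allele) each received the DMSO vehicle, or aristolochic acid I (AAI, a plant nephrotoxin) for 3 weeks, or the same 3 weeks of AAI followed by 3 weeks of remodeling, which the titles count as 6 weeks. The driver of the Klf6 deletion, the age of the mice and the week at which the DMSO kidneys were taken are not given in the sources used here, and nothing in the labels ties each library to its own mouse. The p-values below therefore measure the spread between libraries.

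In necroptosis, the kinases RIPK1 and RIPK3, or the nucleic acid sensor ZBP1 with RIPK3, assemble a complex in which RIPK3 phosphorylates the pseudokinase MLKL, and MLKL then ruptures the plasma membrane. Caspase-8 holds this pathway in check. In pyroptosis, the sensor NLRP3 and the adaptor ASC, the product of Pycard, activate caspase-1, while the product of mouse Casp4, also called caspase-11, senses lipopolysaccharide in the cytosol, and both caspases cut gasdermin D, whose free fragment forms membrane pores. Both kinds of death release cell contents that attract leukocytes, and leukocytes themselves express most of these genes.

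The libraries held 11722625 to 27213219 reads, and the shallowest was fl/fl AAI 6 weeks replicate 2. Klf6 itself did not separate the genotypes in whole cortex: it ran from 40.2 to 56.7, 229 to 310 and 228 to 370 CPM, the reads of a gene scaled to a fixed library total, under DMSO, at 3 weeks and at 6 weeks in PTKO, and from 39.2 to 42.3, 256 to 308 and 201 to 284 CPM in fl/fl. Since the table does not count the exons apart and cortex holds many cell types, this level does not check the genotype label. Proximal tubule markers defined the tissue, with 12 marker genes summing to 24690 to 26490 CPM in PTKO DMSO libraries and 24580 to 26020 CPM in fl/fl DMSO libraries. A set of 6 adipocyte markers summed to 420 CPM in PTKO AAI 6 weeks replicate 2 and 97.6 CPM in PTKO DMSO replicate 2, against 24.7 to 45.1 CPM in the other libraries.

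**Figure D1:**
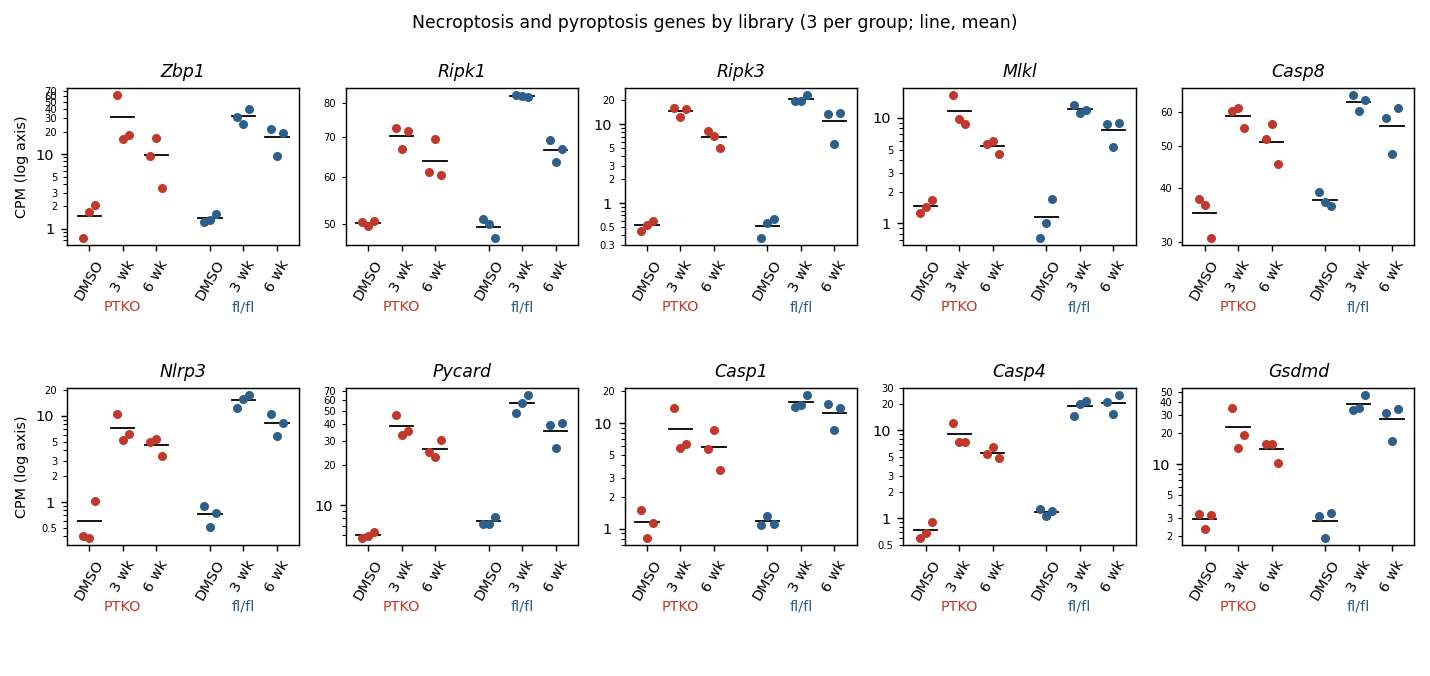
CPM of the 10 genes in each of the 18 libraries (points, log axis) with the mean of each group (line), PTKO left and fl/fl right, in the order DMSO, AAI 3 weeks and AAI 6 weeks. Every AAI library lies above every DMSO library of its genotype for each gene, and the group means are lower at 6 than at 3 weeks in all panels but that of Casp4 in fl/fl.

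On the CPM scale all 10 genes were higher after 3 weeks of AAI in both genotypes. A gene counted as changed at an adjusted p under 0.05 (limma on log2(CPM + 1), Benjamini-Hochberg over 14604 genes that reached 1 CPM in 3 or more libraries, a filter all 10 passed). At 3 weeks 10 of 10 rose in PTKO, where 57.2% of all genes rose, and 10 of 10 in fl/fl, where 58% did. At 6 weeks the CPM fit again called 10 of 10 higher in PTKO, with 53.7% of all genes higher, and 10 of 10 in fl/fl, with 59.8% higher, but the sign of Ripk1 at 6 weeks turned in both genotypes under median-of-ratios scaling. In each of these 4 comparisons no AAI library overlapped a DMSO library for any of the 10 genes, which held for 59.6% and 60.8% of all genes at 3 weeks and for 55.6% and 63% at 6 weeks in PTKO and fl/fl. Both times share the DMSO libraries of their genotype. In bulk cortex, more cells of a type and more RNA per cell cannot be told apart.

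The median of all genes itself moved up on the CPM scale, by 0.42 log2 in PTKO and 0.45 in fl/fl at 3 weeks and by 0.36 in PTKO and 0.45 in fl/fl at 6 weeks. At 3 weeks the CPM fit called 8354 genes higher and 2032 lower in PTKO and 8466 higher and 2651 lower in fl/fl, and with median-of-ratios scaling, which sets that median near 0, it called 4798 higher and 4572 lower in PTKO and 5350 higher and 4998 lower in fl/fl. At 6 weeks the splits were 7842 to 1659 in PTKO and 8733 to 2036 in fl/fl, and 4201 to 4204 and 4996 to 4712 with that scaling. Set against the median, the genes fell into a group of 8 with large rises and a pair with small ones. Zbp1, Ripk3, Mlkl, Nlrp3, Pycard, Casp1, Casp4 and Gsdmd rose by 2.09 to 3.49 log2 in PTKO and 2.64 to 3.85 log2 in fl/fl at 3 weeks, above at least 92.6% of the tested genes. Ripk1 and Casp8 rose by 0.48 and 0.74 log2 in PTKO and by 0.72 and 0.74 log2 in fl/fl, above 54.2% and 68.5% of genes in PTKO and 63.4% and 64.2% in fl/fl. At 6 weeks the group of 8 was higher than under DMSO by 1.38 log2 (Mlkl) to 2.34 log2 (Ripk3) in PTKO and by 2.01 log2 (Mlkl) to 3.29 log2 (Casp4) in fl/fl.

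**Figure D2:**
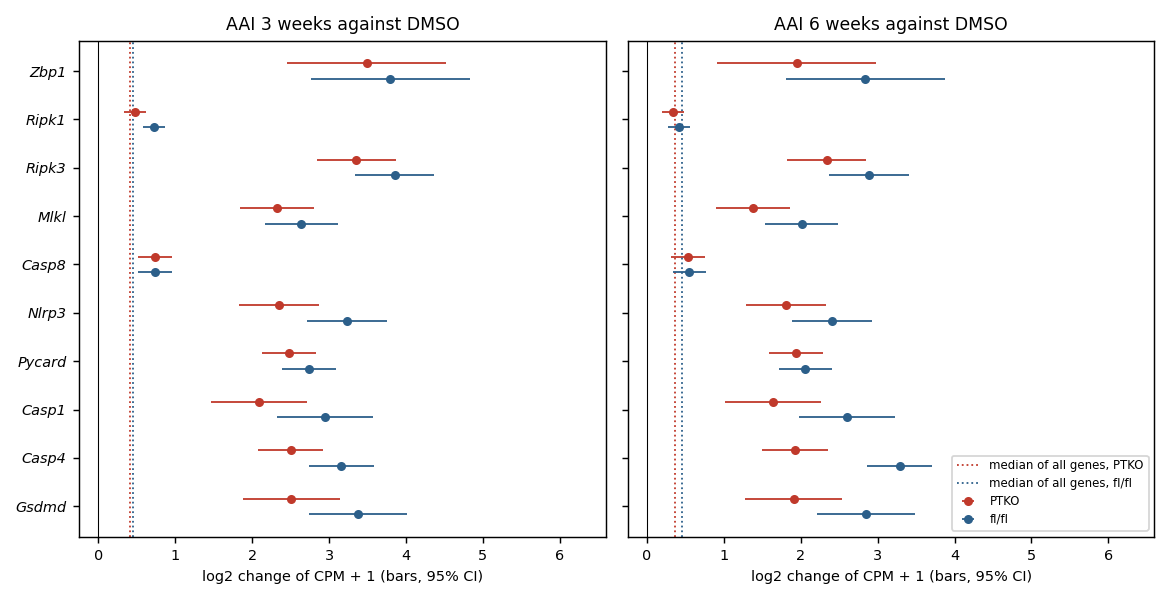
Log2 change of CPM + 1 after AAI against DMSO (points, bars 95% confidence interval) for each gene in PTKO and fl/fl at 3 weeks (left) and 6 weeks (right), with the median change of all genes dotted. Ripk1 and Casp8 lie close to the dotted medians, and the other 8 genes lie at 1.38 log2 or more.

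Ripk3, the kinase that commits a cell to necroptosis (chr14:55784995-55788865, minus strand, mm10), had the highest log2 change of the 10 genes in fl/fl at 3 weeks. In PTKO it measured 0.45, 0.529 and 0.593 CPM under DMSO, 16.2, 12.2 and 15.5 CPM at 3 weeks and 8.26, 7.10 and 5.06 CPM at 6 weeks. In fl/fl it measured 0.363, 0.559 and 0.634 CPM under DMSO, 19.6, 20.0 and 23.3 CPM at 3 weeks and 13.5, 5.63 and 13.7 CPM at 6 weeks. The DMSO values rest on 6 to 12 reads per library, and the times did not overlap in either genotype. The rise at 3 weeks was 3.35 log2 in PTKO (SE 0.24, adjusted p = 1.32e-08) and 3.85 log2 in fl/fl (SE 0.24, adjusted p = 1.47e-09).

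Mlkl, which encodes the membrane-rupturing executioner (chr8:111311797-111338177, minus strand, overlapped by the processed pseudogene Gm45712), averaged 1.45 ± 0.21 CPM under DMSO, 11.7 ± 4.2 CPM at 3 weeks and 5.40 ± 0.82 CPM at 6 weeks in PTKO (SD, n = 3 each). The fl/fl means were 1.15 ± 0.49, 12.2 ± 1.0 and 7.69 ± 2.1 CPM at these stages (SD, n = 3 each). Its rise at 3 weeks was 2.32 log2 in PTKO (SE 0.23, adjusted p = 2.55e-07) and 2.64 log2 in fl/fl (SE 0.23, adjusted p = 3.41e-08). The 3 PTKO libraries at that time, at 16.4, 9.70 and 8.83 CPM, lay around the fl/fl libraries, at 13.3, 11.3 and 11.95 CPM.

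Zbp1, the sensor of Z-form nucleic acids and itself an interferon-stimulated gene (chr2:173206612-173218923, minus strand), varied widely between the PTKO libraries. In PTKO it measured 0.749, 1.68 and 2.05 CPM under DMSO, 61.6, 15.8 and 18.2 CPM at 3 weeks and 9.40, 16.6 and 3.48 CPM at 6 weeks. The fl/fl libraries had 1.21, 1.32 and 1.59 CPM, then 31.4, 25.6 and 40.4 CPM, then 22.0, 9.47 and 19.2 CPM. The highest library was 3.89 times the lowest in PTKO at 3 weeks and 4.76 times at 6 weeks, against 1.58 and 2.32 times in fl/fl. PTKO AAI 3 weeks replicate 1, the library with 61.6 CPM of Zbp1, was also the highest of its group for Gbp2, an interferon-induced guanylate-binding protein, at 772 CPM against 218 and 194 CPM. The same library was the highest of its group for 9 of the 10 genes and for summed macrophage and monocyte markers. fl/fl AAI 6 weeks replicate 2 was the lowest of its group for 10 of 10, and PTKO AAI 6 weeks replicate 3 for 9 of 10. In PTKO AAI 6 weeks replicate 3, thick ascending limb and distal tubule markers summed to 14890 CPM, against 9051 and 6914 CPM in replicates 1 and 2. Its collecting duct markers summed to 1210 CPM, against 800 and 522 CPM. Its fibroblast markers summed to 195 CPM, against 620 and 727 CPM. What sets these libraries apart was not tested. The rise of Zbp1 at 3 weeks was 3.49 log2 in PTKO (SE 0.49, adjusted p = 1.12e-05) and 3.80 log2 in fl/fl (SE 0.49, adjusted p = 2.97e-06).

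Ripk1, the kinase upstream of both survival and death signalling (chr13:34002363-34037147, plus strand), was well detected in vehicle kidneys. It measured 50.4, 49.6 and 50.5 CPM under DMSO, 72.6, 67.0 and 71.6 CPM at 3 weeks and 61.1, 69.5 and 60.6 CPM at 6 weeks in PTKO. In fl/fl it measured 51.1, 50.04 and 47.4 CPM under DMSO, 82.3, 82.1 and 81.8 CPM at 3 weeks and 69.3, 63.5 and 66.7 CPM at 6 weeks. The 3 fl/fl libraries at 3 weeks were nearly identical and stood above every other library. Relative to the median of all genes its change was 0.06 log2 in PTKO and 0.27 log2 in fl/fl at 3 weeks, and -0.02 and -0.04 log2 at 6 weeks. With median-of-ratios scaling its 3-week call was lost in PTKO (0.03 log2, adjusted p = 0.671). Ripk1 overlaps Serpinb6a and the processed pseudogene Gm17083 on the opposite strand and the processed pseudogene Gm17084 on its own strand, and although the library kit keeps strand, it is not stated whether the counting used it.

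Casp8, the caspase that cleaves the RIP kinases and restrains necroptosis (chr1:58795374-58847503, plus strand), ran from 30.7 to 37.7 CPM under DMSO, 55.1 to 61.2 CPM at 3 weeks and 45.4 to 56.1 CPM at 6 weeks in PTKO. Its fl/fl range was 36.4 to 39.2, 60.4 to 65.6 and 47.9 to 61.4 CPM. The genotypes overlapped at 3 and 6 weeks. The gene model Gm37760 overlaps Casp8 on its own strand. Its 6-week rise of 0.54 log2 in PTKO and 0.55 log2 in fl/fl was no longer called with median-of-ratios scaling, at 0.15 log2 (adjusted p = 0.216) and 0.08 log2 (adjusted p = 0.497).

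The start regions of both RIP kinases are shown because these kinases act in one complex and changed by very different amounts. RefSeq promoters (build GRCm38.p6, 250 bases before to 50 after the annotated start) matched 8 of the 10 genes with 11 start sites, Zbp1 and Gsdmd having none in the set. Both strands were searched for GGGCGG, the GC box, held by 35.7% of all 32851 promoters, and for GAAANNGAAA, the core of the interferon-stimulated response element, held by 3.44%. Capitals mark matches, and none of those printed overlap.
Ripk3 (chr14:55788808-55789107, minus strand): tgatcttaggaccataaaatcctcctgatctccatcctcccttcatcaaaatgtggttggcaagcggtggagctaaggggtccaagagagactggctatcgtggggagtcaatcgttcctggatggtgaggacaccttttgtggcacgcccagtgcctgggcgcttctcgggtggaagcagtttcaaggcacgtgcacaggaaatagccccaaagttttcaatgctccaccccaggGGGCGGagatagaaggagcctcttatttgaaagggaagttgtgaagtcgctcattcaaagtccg
Ripk1 (chr13:34002624-34002923, plus strand): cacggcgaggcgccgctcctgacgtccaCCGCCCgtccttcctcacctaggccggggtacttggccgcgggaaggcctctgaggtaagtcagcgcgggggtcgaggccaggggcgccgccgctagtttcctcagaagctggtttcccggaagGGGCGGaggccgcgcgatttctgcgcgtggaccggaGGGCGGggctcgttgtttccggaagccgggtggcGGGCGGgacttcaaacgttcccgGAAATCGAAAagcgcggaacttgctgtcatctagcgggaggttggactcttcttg
Ripk3 held 1 GC box, at base -14 counted from the start as 0. The Ripk1 start shown, the downstream one of 2, held 4 GC boxes and 1 interferon-response core at -5, the only such core among the 11 promoters. A match describes the letters only, and a missing match says nothing about a factor.

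Nlrp3, the inflammasome sensor of membrane and ion disturbance (chr11:59541568-59566956, plus strand), measured 0.40, 0.385 and 1.02 CPM under DMSO, 10.5, 5.29 and 6.16 CPM at 3 weeks and 4.93, 5.37 and 3.43 CPM at 6 weeks in PTKO. The fl/fl libraries had 0.908, 0.508 and 0.74 CPM under DMSO, 12.5, 15.8 and 17.5 CPM at 3 weeks and 10.6, 5.89 and 8.35 CPM at 6 weeks. All PTKO libraries lay below all fl/fl libraries at both AAI times, while the DMSO libraries overlapped. The rise at 3 weeks was 2.35 log2 in PTKO and 3.23 log2 in fl/fl (SE 0.24 each, adjusted p = 5.31e-07 and 9.47e-09).

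Pycard, the adaptor that joins sensor to caspase (chr7:127989708-127993867, minus strand), averaged 5.99 ± 0.29 CPM under DMSO, 38.3 ± 7.3 CPM at 3 weeks and 25.9 ± 3.8 CPM at 6 weeks in PTKO (SD, n = 3 each). The fl/fl means were 7.59 ± 0.52, 56.7 ± 8.8 and 35.4 ± 7.6 CPM (SD, n = 3 each). PTKO libraries ran lower than every fl/fl library under DMSO and at 3 weeks, and the genotypes overlapped at 6 weeks. The rise at 3 weeks was 2.48 log2 in PTKO (SE 0.16, adjusted p = 5.47e-09) and 2.74 log2 in fl/fl (SE 0.16, adjusted p = 9.46e-10). The gene model Gm45205 overlaps Pycard on the opposite strand.

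Casp4 and Casp1 are neighbours on chromosome 9, Casp1 at chr9:5298517-5307265 and Casp4 at chr9:5308828-5336783, both on the plus strand with 1562 bases between them. Casp4 measured 0.599, 0.674 and 0.916 CPM under DMSO, 12.2, 7.39 and 7.41 CPM at 3 weeks and 5.45, 6.42 and 4.86 CPM at 6 weeks in PTKO. In fl/fl it measured 1.27, 1.07 and 1.22 CPM under DMSO, 14.7, 20.1 and 21.5 CPM at 3 weeks and 21.3, 15.5 and 25.3 CPM at 6 weeks. No PTKO library reached the lowest fl/fl library at any of the 3 stages, and the distance was widest at 6 weeks, where the highest PTKO value was 6.42 CPM and the lowest fl/fl value 15.5 CPM. Against DMSO, Casp4 at 6 weeks was higher by 1.92 log2 in PTKO (SE 0.20, adjusted p = 9.98e-07) and 3.29 log2 in fl/fl (SE 0.20, adjusted p = 2.35e-09).

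Casp1, whose product also matures interleukin-1 beta and interleukin-18, measured 1.498, 0.818 and 1.13 CPM under DMSO, 14.01, 5.81 and 6.28 CPM at 3 weeks and 5.71, 8.52 and 3.58 CPM at 6 weeks in PTKO. In fl/fl it measured 1.09, 1.32 and 1.11 CPM under DMSO, 14.1, 14.9 and 18.5 CPM at 3 weeks and 15.1, 8.62 and 13.9 CPM at 6 weeks. The genotypes overlapped under DMSO and were separate at both AAI times, but by small distances. At 3 weeks PTKO replicate 1 had 14.01 CPM and fl/fl replicate 1 14.11 CPM, and at 6 weeks PTKO replicate 2 had 8.52 CPM and fl/fl replicate 2 8.62 CPM. Its rise at 3 weeks was 2.09 log2 in PTKO (SE 0.29, adjusted p = 1.23e-05) and 2.95 log2 in fl/fl (SE 0.29, adjusted p = 1.88e-07).

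The start regions of the neighbouring caspases are given because they are adjacent and both were lower in PTKO at 6 weeks. The searched NF-kB form was GGGNNTTTCC, on both strands, which 1.63% of all promoters held.
Casp4 (chr9:5308599-5308898, plus strand): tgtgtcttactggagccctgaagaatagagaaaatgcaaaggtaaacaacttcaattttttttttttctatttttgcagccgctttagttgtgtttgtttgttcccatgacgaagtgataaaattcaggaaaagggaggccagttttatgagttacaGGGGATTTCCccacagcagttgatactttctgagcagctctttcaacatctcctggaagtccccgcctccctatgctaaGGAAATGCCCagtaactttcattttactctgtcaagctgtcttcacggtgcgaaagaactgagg
Casp1 (chr9:5298267-5298566, plus strand): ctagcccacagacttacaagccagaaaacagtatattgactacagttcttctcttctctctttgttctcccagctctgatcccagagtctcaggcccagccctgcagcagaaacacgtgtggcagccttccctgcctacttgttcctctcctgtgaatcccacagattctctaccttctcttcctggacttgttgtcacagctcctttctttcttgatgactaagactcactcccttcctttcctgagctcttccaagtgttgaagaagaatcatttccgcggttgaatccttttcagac
Casp4 held the NF-kB form at -93 on the plus strand and at -14 on the minus strand, marked in capitals, and it was the only one of the 8 genes with a match. A further Casp4 start in the set covers the same matches. Casp1 held none of the searched forms, and TGANTCA, the AP-1 form found in 7.81% of all promoters, was in none of the 11.

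Gsdmd, the pore-forming executioner of pyroptosis (chr15:75862327-75867408, plus strand), measured 3.25, 2.36 and 3.23 CPM under DMSO, 35.2, 14.2 and 19.3 CPM at 3 weeks and 15.8, 15.7 and 10.3 CPM at 6 weeks in PTKO. The fl/fl libraries had 3.15, 1.93 and 3.33 CPM under DMSO, 33.6, 35.03 and 46.7 CPM at 3 weeks and 30.9, 16.6 and 33.9 CPM at 6 weeks. At 3 weeks PTKO replicate 1 fell inside the fl/fl range and the other PTKO libraries below it. Its rise at 3 weeks was 2.51 log2 in PTKO (SE 0.30, adjusted p = 2.25e-06) and 3.38 log2 in fl/fl (SE 0.30, adjusted p = 5.16e-08).

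After the AAI course ended, some of these genes were lower again. In PTKO 3 of 10 genes were lower at 6 than at 3 weeks, namely Ripk3 by -1.01 log2 (adjusted p = 0.0168), Mlkl by -0.94 log2 (adjusted p = 0.0166) and Pycard by -0.54 log2 (adjusted p = 0.0456), where 8.26% of all genes were lower. In fl/fl 4 of 10 were lower, namely Ripk1 by -0.30 log2 (adjusted p = 0.0102), Ripk3 by -0.97 log2 (adjusted p = 0.0183), Nlrp3 by -0.83 log2 (adjusted p = 0.0367) and Pycard by -0.68 log2 (adjusted p = 0.0156), where 6.07% were lower. The libraries of the times did not overlap for 4 genes in PTKO and 6 in fl/fl, all lower, as was true of 19.6% and 15.6% of all genes. In PTKO the calls over all genes split into 426 higher and 1207 lower, and with median-of-ratios scaling into 547 higher and 838 lower. Casp4 in fl/fl had the one positive difference among the 20 values, 0.13 log2 (95% interval -0.30 to 0.55, adjusted p = 0.705), while in PTKO its difference was -0.58 log2 (95% interval -1.001 to -0.15, adjusted p = 0.073).

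These calls depended on single libraries. Without fl/fl AAI 6 weeks replicate 2 none of the 10 genes was called in fl/fl and 5 were in PTKO, and without fl/fl AAI 3 weeks replicate 3 only 1 was called in fl/fl. In PTKO the count was 0 without AAI 3 weeks replicate 1, and 1 without AAI 3 weeks replicate 3 or AAI 6 weeks replicate 3. The share of all genes called in each of these fits is not given here, so the swings are not read as particular to the 10 genes.

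Under DMSO 0 of 10 genes differed between the genotypes in limma, against 0.288% of all genes, and none was called by edgeR or DESeq2. None had an unadjusted p under 0.05, as 6.53% of all genes did. The widest interval was that of Zbp1, -0.996 to 1.07 log2. Casp4 (-0.34 log2, 95% interval -0.76 to 0.08) and Pycard (-0.30 log2, 95% interval -0.65 to 0.05) did not overlap between the genotypes, which 9.44% of all genes did in that direction.

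After AAI all 10 differences were negative at both times in the CPM fit, and Casp4 passed at both. The median of all genes was also negative, -0.04 log2 at 3 weeks and -0.11 log2 at 6 weeks. At 6 weeks Ripk1 lay above 56.8% of all genes and Casp8 above 47.7%. Some signs turned in alternative fits, with Mlkl up to 0.06 and Zbp1 up to 0.07 log2 at 3 weeks. Ripk1 reached 0.08 and Casp8 0.02 log2 at 6 weeks. At 3 weeks 4 of 10 were lower in PTKO, against 8% of all genes: Casp4 by -0.998 log2 (95% interval -1.42 to -0.57, adjusted p = 0.00684), Nlrp3 by -1.002 log2 (95% interval -1.52 to -0.48, adjusted p = 0.0158), Pycard by -0.56 log2 (95% interval -0.91 to -0.21, adjusted p = 0.0347) and Ripk1 by -0.22 log2 (95% interval -0.36 to -0.08, adjusted p = 0.0399). At 6 weeks 2 of 10 were lower, against 11.8% of all genes: Casp4 by -1.70 log2 (95% interval -2.13 to -1.28, adjusted p = 0.00018) and Casp1 by -0.99 log2 (95% interval -1.62 to -0.37, adjusted p = 0.0342). The genotypes did not overlap for 6 genes at 3 weeks and 4 at 6 weeks, all lower in PTKO, as was the case for 19.3% and 21.1% of all genes. Over all genes the calls split into 908 higher and 1169 lower at 3 weeks and 477 higher and 1721 lower at 6 weeks, against 1128 higher and 836 lower, and 823 higher and 677 lower, with edgeR.

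Of the necroptosis branch, Mlkl, Zbp1 and Casp8 differed by -0.10, -0.27 and -0.10 log2 at 3 weeks, with intervals of -0.58 to 0.38, -1.31 to 0.76 and -0.32 to 0.11 log2. Ripk3 differed by -0.50 log2 (95% interval -1.01 to 0.02) at 3 weeks and -0.54 log2 (95% interval -1.06 to -0.03) at 6 weeks. Gsdmd differed by -0.80 log2 at 3 weeks (adjusted p = 0.0833) and -0.87 log2 at 6 weeks (adjusted p = 0.0598). At 6 weeks Mlkl, Zbp1, Casp8 and Ripk1 differed by -0.42, -0.86, -0.12 and -0.06 log2, with adjusted p from 0.215 to 0.554. Nlrp3 and Pycard, called at 3 weeks, differed by -0.72 log2 (adjusted p = 0.0569) and -0.42 log2 (adjusted p = 0.0932) at 6 weeks, and Casp1, called at 6 weeks, by -0.88 log2 (adjusted p = 0.0557) at 3 weeks. A difference between the branches, or between the times, was not tested.

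**Figure D3:**
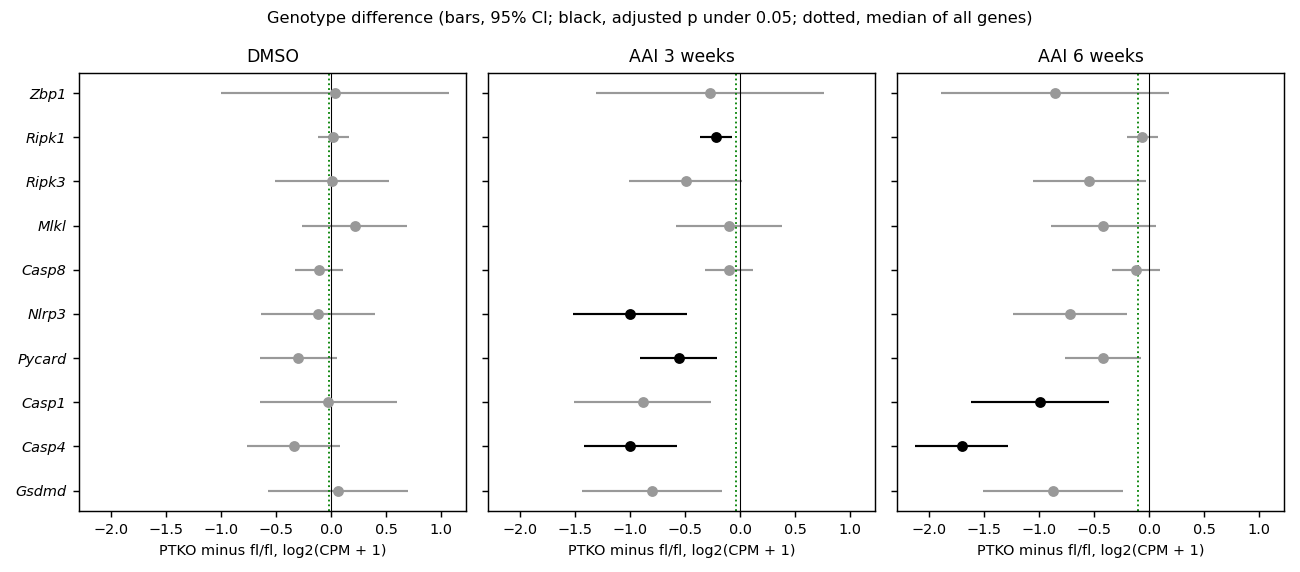
PTKO minus fl/fl difference in log2(CPM + 1) for each gene (points, bars 95% confidence interval) under DMSO, at AAI 3 weeks and at AAI 6 weeks, black where the adjusted p was under 0.05, with the median of all genes dotted. Casp4 is the one gene in black at both AAI times, at -0.998 and -1.70 log2.

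The genotype difference of Casp4 kept its direction and its call at 3 and 6 weeks in all 29 alternative fits run for each, between -1.22 and -0.89 log2 at 3 weeks and between -1.98 and -1.55 log2 at 6 weeks. The others moved with single libraries. At 3 weeks the count was 7 without fl/fl AAI 6 weeks replicate 2 and 1 without fl/fl AAI 3 weeks replicate 2 or 3 or PTKO AAI 3 weeks replicate 2 or 3. At 6 weeks it was 6 without fl/fl AAI 6 weeks replicate 2, 4 without PTKO AAI 3 weeks replicate 1, and 1 without fl/fl AAI 6 weeks replicate 1 or 3 or PTKO AAI 6 weeks replicate 1 or 3.

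Whether AAI acted differently by genotype is the interaction, the AAI change in PTKO minus that in fl/fl. None of the 10 passed at 3 weeks, against 0.281% of all genes, and none at 6 weeks, against 0.0685%, in limma, edgeR or DESeq2, while 3 had an unadjusted p under 0.05 at each time, as did 18.6% of all genes at 3 weeks and 14.6% at 6 weeks. Casp4 came nearest, at -1.36 log2 at 6 weeks (95% interval -1.96 to -0.76, unadjusted p = 0.000193, adjusted p = 0.0899), and it passed without fl/fl AAI 6 weeks replicate 2 (-1.55 log2, adjusted p = 0.0267). Over 29 alternatives the Casp4 value ran from -1.66 to -1.06 log2, with adjusted p up to 0.33, and passed in 2. The Casp4 value at 3 weeks was -0.66 log2 (95% interval -1.26 to -0.06, adjusted p = 0.229), and ran from -0.875 to -0.32 log2. Under DMSO Casp4 averaged 0.73 CPM in PTKO and 1.185 CPM in fl/fl. That difference, -0.34 log2 and not called, enters both values and ran from -0.68 to -0.29 log2 over the alternatives. Nlrp3 at 3 weeks gave -0.88 log2 (adjusted p = 0.192), and Casp1 at 6 weeks -0.97 log2 (adjusted p = 0.307).

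Markers of several other cell types moved with these genes, but not those of all. The 6 endothelial markers summed to 436 to 538 CPM under DMSO and 428.5 to 577 CPM at 3 weeks in PTKO. In fl/fl they summed to 456 to 526 and 469 to 570.5 CPM. The 5 B cell markers summed to 211 to 260 and 198.5 to 287.5 CPM in PTKO. In fl/fl the B cell sums were 54.6 to 159 CPM under DMSO and 195.5 to 850.5 CPM at 3 weeks. All 14 macrophage and monocyte markers rose at 3 weeks in both genotypes, and at 6 weeks 13 of 14 did in PTKO and 14 of 14 in fl/fl. Their sum was 153 to 170 CPM under DMSO, 1990 to 3934 CPM at 3 weeks and 1237 to 2735 CPM at 6 weeks in PTKO, and 151 to 222, 5795 to 9643 and 3316 to 5724 CPM in fl/fl. In PTKO 11 of 14 were lower than in fl/fl at 3 weeks and 9 of 14 at 6 weeks. None of these markers was at 0 in all libraries of a group.

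General leukocyte markers, 5 genes, summed to 584 to 1184 CPM in PTKO and 1263 to 1916 CPM in fl/fl at 3 weeks, and to 270 to 634 CPM in PTKO and 705 to 1239 CPM in fl/fl at 6 weeks. Of 8 neutrophil markers 7 were in the table, with sums of 8.78 to 19.3 CPM in PTKO and 20.8 to 64.2 CPM in fl/fl at 3 weeks, and Camp at 0 in the PTKO libraries at that time. Under DMSO the neutrophil sums were 2.98 to 10.9 CPM in PTKO, overlapping 3 weeks, and 0.484 to 3.86 CPM in fl/fl. Proximal tubule markers ran the other way, with sums of 6714 to 9075 CPM in PTKO and 3324 to 5644 CPM in fl/fl at 3 weeks, and 10 of 12 were higher in PTKO. The 8 injured tubule markers summed to 19400 to 24540 CPM in PTKO and 20240 to 25500 CPM in fl/fl at 3 weeks, overlapping between the genotypes. At 3 weeks 6 of 7 tested T and NK cell markers rose in PTKO and 7 of 7 in fl/fl, and all 6 fibroblast markers rose in both, with 4 of 6 lower in PTKO at 6 weeks.

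The part of these marker changes in the 10 genes was not tested.

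**Figure D4:**
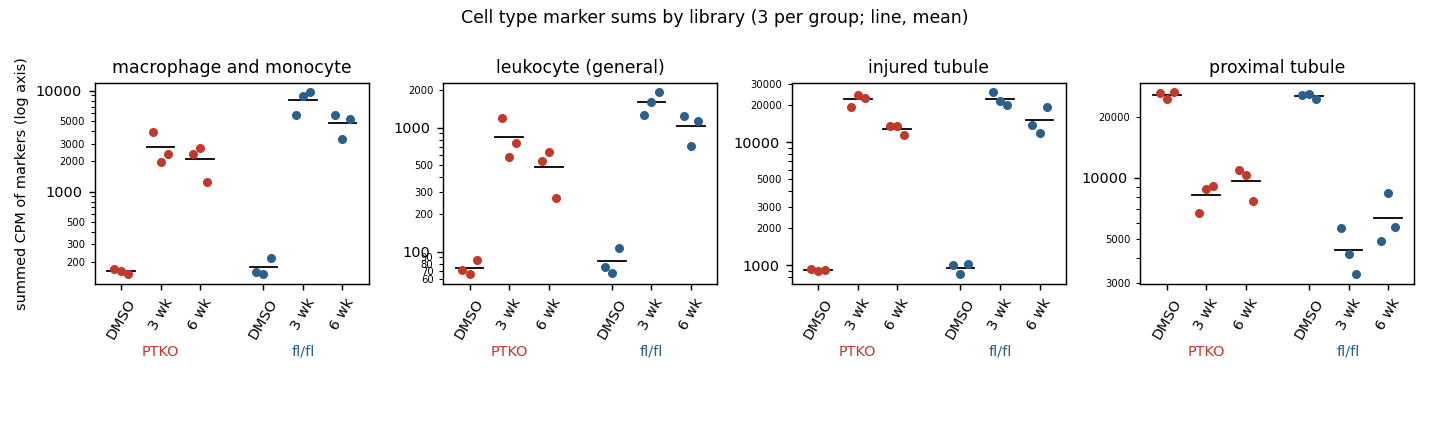
Summed CPM of 14 macrophage and monocyte, 5 general leukocyte, 8 injured tubule and 12 proximal tubule markers in each library (points, log axis; line, mean), PTKO left and fl/fl right. The macrophage sums are lower in every PTKO library than in every fl/fl library at both AAI times, and the injured tubule sums overlap.

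Wider lists placed the 10 genes in their pathways. The necroptosis and inflammasome lists include the 10 genes themselves, so their counts and medians are not independent of them. Of all genes 57.2% rose in PTKO and 58% in fl/fl at 3 weeks, and 53.7% and 59.8% were higher at 6 weeks. Of 40 necroptosis pathway genes 39 were tested, and at 3 weeks 30 rose and 1 fell in PTKO, and 31 rose and 2 fell in fl/fl. Their median change was 0.69 log2 in PTKO and 0.84 log2 in fl/fl, beside 0.42 and 0.45 log2 for all genes. Chuk, a kinase of the NF-kB pathway, fell in both, by -0.57 log2 in PTKO and -1.24 log2 in fl/fl, and the death ligand Tnfsf10 fell in fl/fl by -1.20 log2.

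Tnf, the cytokine that triggers RIPK1 signalling, ran from 1.70 to 5.70 CPM in PTKO and 4.18 to 12.1 CPM in fl/fl at 3 weeks, with at most 4 reads in any DMSO library. Its receptor Tnfrsf1a rose by 1.70 log2 in PTKO and 1.93 log2 in fl/fl. The brakes on RIPK1 rose too, with the ubiquitin editor Tnfaip3 at 2.87 log2 in PTKO and 2.80 log2 in fl/fl and the ubiquitin ligase Birc3 at 2.66 and 2.84 log2. Fadd and Cflar, which hold caspase-8 in its complex, did not pass, at 0.17 and 0.03 log2 in PTKO and 0.17 and 0.08 log2 in fl/fl, and with median-of-ratios scaling both were called lower in both genotypes, Fadd at -0.26 and -0.28 log2 and Cflar at -0.42 and -0.38 log2. Adar, which edits double-stranded RNA and limits ZBP1, rose by 1.31 log2 in PTKO and 1.37 log2 in fl/fl.

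Of 54 inflammasome and pyroptosis genes 51 were tested, and at 3 weeks 43 rose and 2 fell in PTKO and 44 rose and 4 fell in fl/fl, with medians of 1.77 log2 in PTKO and 2.36 log2 in fl/fl. At 6 weeks 42 rose and 4 fell in PTKO, and 43 rose and 3 fell in fl/fl. Il1rn, the antagonist of the interleukin-1 receptor, ran from 17.4 to 30.3 CPM in PTKO and 41.5 to 85.4 CPM in fl/fl at 3 weeks, with at most 6 reads in any DMSO library. Il1b rose by 1.71 log2 in PTKO and 2.97 log2 in fl/fl, and Il18 by 0.58 log2 in PTKO and 0.86 log2 in fl/fl, with a turned sign for Il18 under quantile normalization. The Il18 call in PTKO (adjusted p = 0.0254) was also lost in 6 of 29 alternatives. The DNA sensor Aim2 rose by 2.33 log2 in PTKO and 3.18 log2 in fl/fl.

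Several genes of the list did not follow it. Nlrc4, the partner of bacterial-protein sensors, fell by -0.82 log2 in PTKO and -0.53 log2 in fl/fl, and the epithelial sensor Nlrp6 by -1.19 and -2.43 log2. The Nlrc4 call in fl/fl (adjusted p = 0.0419) was lost in 8 of 29 alternatives, with adjusted p up to 0.139, among them the fits without fl/fl DMSO replicate 2 or 3 and without fl/fl AAI 3 weeks replicate 1 or 3. Gsdme, a gasdermin cut by caspase-3 and listed in the table under the older symbol Dfna5, fell by -0.57 log2 in fl/fl (adjusted p = 0.0066), while its PTKO value was -0.01 log2 (adjusted p = 0.974). That PTKO value ran from -0.79 to 0.12 log2 over 29 alternatives and was called lower in 2 of them. Nek7, which licenses NLRP3, did not pass at 0.03 log2 in PTKO and -0.14 log2 in fl/fl, and with median-of-ratios scaling it was called lower, at -0.41 and -0.60 log2. Ninj1, which ruptures the membrane after gasdermin pores form, rose in fl/fl by 0.50 log2 and measured 0.01 log2 in PTKO, and with median-of-ratios scaling it was called lower in PTKO (-0.44 log2, adjusted p = 0.000519) and lost its call in fl/fl (0.03 log2, adjusted p = 0.757).

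Between the genotypes, 17 of the 51 tested inflammasome list genes were lower and 1, Nlrp6, higher in PTKO at 3 weeks, and 18 were lower and 0 higher at 6 weeks. The lower genes include Casp4, Nlrp3 and Pycard at 3 weeks and Casp4 and Casp1 at 6 weeks. Of all genes 8% were lower in PTKO at 3 weeks and 11.8% at 6 weeks. The median difference was -0.45 log2 at 3 weeks and -0.56 log2 at 6 weeks, beside -0.04 and -0.11 log2 for all genes. Il1rn was lower by -1.57 log2 at 3 weeks and -1.20 log2 at 6 weeks (adjusted p = 0.0166 and 0.0469). Its call was lost in 4 of 29 alternatives at 3 weeks and in 22 of 29 at 6 weeks, with adjusted p at 6 weeks between 0.00862 and 0.244. Without fl/fl AAI 6 weeks replicate 1 the 6-week difference was -0.80 log2 and without PTKO AAI 6 weeks replicate 3 it was -0.78 log2. P2rx7, the receptor for extracellular ATP upstream of NLRP3, named after its values were seen, was lower by -1.21 log2 at both times (adjusted p = 0.0152 and 0.0156). Aim2 was lower by -1.41 log2 at 6 weeks (adjusted p = 0.00735). Of the 39 tested necroptosis list genes 4 were lower and 2 higher at 3 weeks, and 4 lower and 0 higher at 6 weeks, with medians of -0.10 and -0.18 log2. The shares of all genes that were lower, 8% and 11.8%, were close to these counts. Casp12, a further inflammatory caspase, differed by -0.04 log2 at 3 weeks (adjusted p = 0.949) and -0.87 log2 at 6 weeks (adjusted p = 0.0507).

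Lists of membrane repair and of other death routes were counted in the same way, on the scale where 57.2% of all genes rose in PTKO and 58% in fl/fl at 3 weeks. The list of 20 membrane repair genes held annexins, partners such as Tsg101 and Pdcd6ip, and ESCRT-III genes, whose products patch MLKL and gasdermin pores. Of the 20, 13 rose in PTKO and 14 in fl/fl at 3 weeks and none fell. Their medians were 0.31 and 0.44 log2, no higher than all genes. Of 28 tested apoptosis genes 22 rose in each genotype, and 4 fell in PTKO and 3 in fl/fl. Of 22 ferroptosis genes 8 rose and 8 fell in PTKO, and 8 rose and 9 fell in fl/fl. Gpx4, which detoxifies lipid peroxides, fell by -0.44 log2 in PTKO and -0.64 log2 in fl/fl, and Acsl4, which supplies oxidisable lipids, rose by 1.13 and 1.15 log2.

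**Figure D5:**
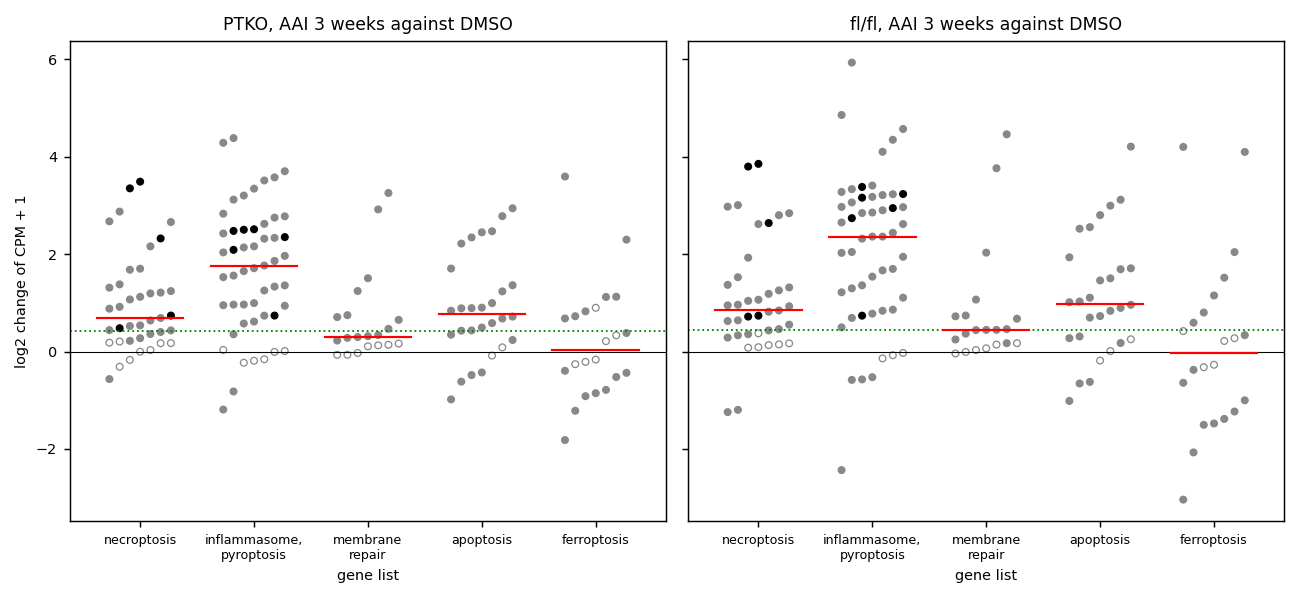
Log2 change of CPM + 1 at AAI 3 weeks against DMSO for the tested genes of 5 lists (points; filled, adjusted p under 0.05; black, the 10 genes) in PTKO (left) and fl/fl (right), with list medians in red and the median of all genes dotted. The inflammasome list has the highest median, 1.77 log2 in PTKO and 2.36 log2 in fl/fl, and ferroptosis the lowest, 0.02 and -0.03 log2.

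Likeness of pattern was measured as the root mean square difference in log2(CPM + 1), each library set against the DMSO mean of its genotype, over the 12 AAI libraries and 13746 named genes. Nearest to Zbp1 was Tap1, a peptide transporter of antigen presentation (0.30), and nearest to Mlkl was Dhx58, an RNA sensor (0.10). Nearest to Gsdmd was Fes, a myeloid tyrosine kinase (0.09). Nearest to Casp4 was Dock10 (0.22), and nearest to Ripk1 was Oraov1 (0.06). Ptpre lay nearest to Nlrp3 (0.17), Neurl3 to Casp1 (0.17), Rap2b to Ripk3 (0.25) and Gtf2e1 to Casp8 (0.09).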

How the data were processed

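Kidney cortex total RNA (stranded Illumina kit, per the labels) was sequenced in 18 libraries. The submitters' processing notes name kallisto, bcl2fastq 2.19 and the mm10 build, and the deposited values are CPM made by the authors, 1 column per library, with every column mapped by its name to a sample. All 433116 values (100%) were within 0.01 of a whole number of reads once scaled, so reads were recovered. A value of 0 allows up to 3 reads of a library, counting error only.

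The genes reaching 1 CPM in 3 or more libraries (14604 of 24062) were fitted as log2(CPM + 1) with limma 3.58.1 in R 4.3.3, 6 group means over all libraries and a variance trend, two-sided, Benjamini-Hochberg adjusted. Log2 changes understate those of low genes. The code was tested on simulated data. Alternatives were other pseudocounts, filters, scalings and fits, edgeR 4.0.16 and DESeq2 1.42.0 on recovered reads, and each library left out. edgeR on recovered reads called 4938 genes higher and 4478 lower at 3 weeks in PTKO, and 5270 higher and 5091 lower in fl/fl.

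The 10 genes, lists and markers were chosen with earlier results of these data known. Named genes are the 10, Klf6, 27 list genes picked for their role, list genes that moved against their list, and the genes nearest in pattern. Gsdme, Adgre1 and Jchain were matched through RefSeq synonyms, and the markers Ly6g and Trac were not analysed here. Promoters are from RefSeq, and gene positions from GENCODE on mm10.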

Additional observations from a re-analysis of the deposited data

How the results depend on the processing

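Over 29 alternatives per result, 7 of the 10 genes kept their call in all 4 AAI against DMSO comparisons, and the 10 of 10 counts stayed within 1.5 times. edgeR and DESeq2 each called 9 of 10 at 3 weeks in PTKO and 10 of 10 in fl/fl. At 6 weeks each called 8 of 10 in both genotypes. Of all genes, edgeR called fewer higher at 3 weeks than the CPM fit did, as given above. Totals over all genes for DESeq2, and for edgeR at 6 weeks, are not given here. The shares of the CPM fit are therefore not the background of these counts. Ripk1 at 6 weeks turned to -0.052, -0.0176 and -0.0491 log2 in PTKO and to -0.0541, -0.0581 and -0.0551 log2 in fl/fl with median-of-ratios scaling, edgeR and DESeq2. Cyld at 3 weeks in PTKO turned to -0.0851, -0.0728 and -0.088 log2 under the same settings, and Il18 to -0.43 log2 in PTKO and -0.19 log2 in fl/fl under quantile normalization. Zbp1 at 6 weeks in PTKO lost its call under quantile normalization (1.196 log2, adjusted p = 0.0501). The 6 against 3 weeks count was 1 in PTKO and 0 in fl/fl with the compared groups fitted alone, and ran from 0 to 5 in each with 1 library left out. The PTKO against fl/fl count at 3 weeks was 2 with the groups alone, and ran from 1 to 7 with 1 library left out. At 6 weeks it was 1 with no filter, median-of-ratios scaling, quantile normalization, the groups alone or edgeR, and ran from 1 to 6 with 1 library left out. Leaving out 3 libraries (the shallowest and the pair richest in adipocyte markers), an alternative chosen after seeing the data, gave 0 for 6 against 3 weeks in fl/fl, 7 for the genotypes at 6 weeks and 1 for the interaction at 6 weeks, Casp4 (-1.66 log2, adjusted p = 0.0342). That interaction count ran from 0 to 1 with 1 library left out. The calls over all genes in these fits are not given here, and the cause of these shifts was not tested. Replicate numbers did not pair the libraries: deviations of same-numbered libraries correlated with a median of 0.008 over 45 pairs. With the replicate block, Gsdmd at 6 weeks became lower in PTKO (-0.87 log2, adjusted p = 0.0399), and Ripk1 at 3 weeks (-0.22 log2, adjusted p = 0.0567) and Il1rn at 6 weeks (-1.20 log2, adjusted p = 0.057) were lost. Low DMSO counts limit the folds of Ripk3, at 6 to 12 reads. The same limit holds for Nlrp3 at 8 to 19 reads, Casp4 at 12 to 23 and Mlkl at 12 to 32. It also holds for Casp1 at 17 to 30 reads and Zbp1 at 15 to 38.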
